A study of Mus musculus with 6 samples.

Results

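The alternative complement pathway and its regulators were followed through 8 genes in RNA from mouse RPE/choroid: the components C3, Cfb, Cfd and Cfp, the fluid-phase regulators Cfi and Serping1, and the membrane regulators Cd55 and Cd59a. They were chosen by name, and all 8 were found among the 33924 gene symbols of the deposited table. RPE/choroid is the pigmented epithelium that backs the neural retina, taken with the vessels under it by scraping the opened eyecup. Libraries were made from rRNA-depleted total RNA of 3 young and 3 aged wild-type C57BL/6J mice, each from a pair of eyes. The young mice are labelled 1 to 2 months old. The aged mice are labelled 20 to 24 months in their titles and 22 to 24 months in the time label. The labels call every mouse male, but the methods describe male and female mice and a somewhat older young group.

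The study asked how gene expression differs between young and aged RPE/choroid. The deposited table names 0 columns by sample and gives for each gene 1 mean of normalized counts over the 6 libraries, so young and aged mice stand in the same value. Its other columns are the authors' own comparison of the ages and were not used here. The levels below therefore describe RPE/choroid of both ages together, carry no SD, and say nothing about the direction of a change with age. No difference between 2 levels was tested. The depth of each library is unknown here, and in bulk tissue fewer cells of a type and less RNA per cell cannot be told apart.

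Complement is a cascade of plasma and tissue proteins that tags surfaces for removal and can end in a pore in the target membrane. In the alternative pathway, C3 that has attached to a surface binds factor B (Cfb), factor D (Cfd) cuts the bound factor B, and properdin (Cfp) stabilizes the resulting enzyme, which cleaves more C3. Host cells restrain this loop through soluble and membrane-bound regulators, and variants in human genes of this pathway are associated with macular degeneration, a disease of the RPE and choroid.

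The genes formed a wide range. Serping1, C3 and Cd59a were well expressed, Cd55, Cfp and Cfd lay nearer the middle of all genes per kilobase, and Cfb and Cfi were lower. Means of at least 100 normalized counts were listed for 5 of the 8 genes, and for 48.2% of all genes with a mean above 0. To compare genes, each mean was divided by the length of the longest annotated transcript in kilobases to give the level per kilobase. Levels per kilobase ran from 8.80 for Cfi to 1434 for Serping1, a ratio of 163. Serping1, Cd59a and C3 together held 88.9% of the summed level per kilobase of the 8 genes.

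**Figure D1:**
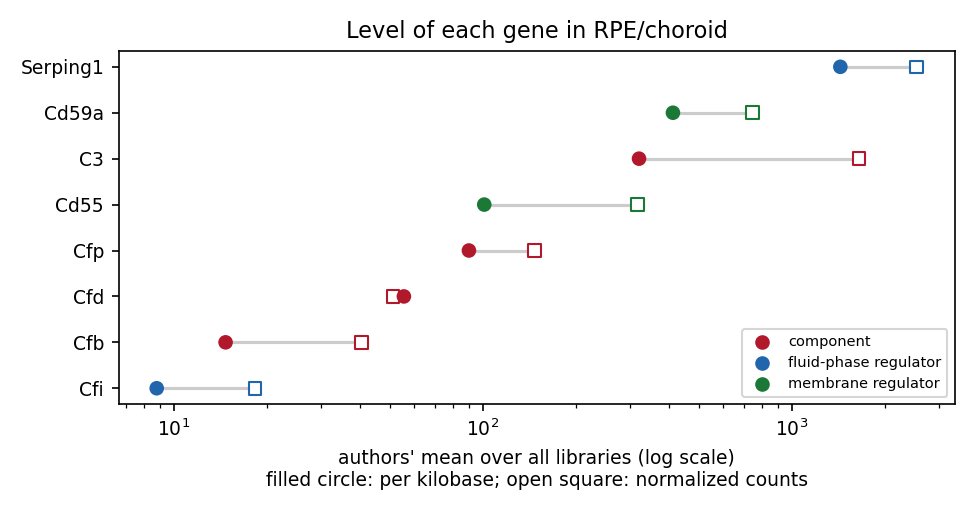
Authors' mean over all 6 libraries for each of the 8 genes on a log axis, as the level per kilobase (filled circles) and as normalized counts (open squares), coloured by role. Serping1 lies highest at 1434 per kilobase and Cfi lowest at 8.80, and there are no error bars because the mean is pooled over libraries.

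C3, the protein on which all activation pathways converge, was the most abundant component. Its gene (ENSMUSG00000024164.15) lies on the minus strand of chromosome 17 at 57203970 to 57228136 (GRCm38), and its longest transcript has 41 exons and 5136 bases. The mean of C3 was 1645 normalized counts, at percentile 89.6 of the 26681 genes with a mean above 0. Per kilobase the level of C3 was 320, at percentile 82.7 of the 22862 genes with an annotated length. The receptor of its fragment C3a, C3ar1, had a level of 230 per kilobase, so that the level of C3 was 1.39 times that of C3ar1.

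The other components of the loop were far below C3. Cfp, which encodes properdin, lies on the X chromosome at 20925454 to 20931555 on the minus strand and had a mean of 147 normalized counts. Its level per kilobase was 90.1, and that of C3 was 3.56 times as high. Cfd, which encodes factor D, the serine protease also known as adipsin, lies on chromosome 10 at 79890853 to 79892655 on the plus strand. Its mean was 51.2 normalized counts and its level 55.5 per kilobase, against which C3 stood 5.77 times higher. Cfb, which encodes the catalytic subunit of the alternative pathway convertase, had a mean of 40.4 normalized counts and a level of 14.7 per kilobase. The level of C3 per kilobase was 21.8 times that of Cfb, the widest step between C3 and another component.

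Because Cfd is strongly expressed in fat, adipocyte markers were set beside it. Of 6 adipocyte markers, 1 reached a mean of 100 normalized counts, namely Fabp4, which capillary endothelium also expresses, with 486. Its level of 115 per kilobase was above that of Cfd. Adipoq, the adipocyte hormone adiponectin, had 22.8 normalized counts and a level of 17.6 per kilobase, below the 55.5 of Cfd. The lipid droplet genes Plin1 and Cidec had 6.42 and 9.14 per kilobase, and the hormone gene Lep had 0.368. Whether adipocyte RNA contributed to the level of Cfd was not tested.

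The transcripts of Cfb overlap those of a neighbour, so its sequence was examined next to its level. Cfb (ENSMUSG00000090231.10) lies on the minus strand of chromosome 17 at 34856374 to 34862518, and 85 bases separate it from C2, the classical pathway counterpart of factor B, on the same strand. A further annotated gene, Gm20547, spans parts of both. Reads can be told apart only where transcripts differ, so the transcripts of each gene were broken into all words of 31 bases. Of the 2936 words of Cfb, 2218 (75.5%) also occur in Gm20547, and 24.5% occur in no other gene. In the main coding transcript of Cfb, the first 461 bases preceded the shared part. The coding stretch around that step runs from exon 1 to exon 2 and is shown because it marks where a read stops being specific to Cfb. Capitals mark the beginning of the part shared with Gm20547. It lies within chr17:34861927-34862093 (GRCm38, minus strand, intron excluded).
Cfb: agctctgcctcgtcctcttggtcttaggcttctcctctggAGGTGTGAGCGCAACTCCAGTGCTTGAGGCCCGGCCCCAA

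Gm20547 was listed at 0 in the table, and C2 had a mean of 1313 normalized counts. Per kilobase the level of C2 was 33.8 times that of Cfb. Of the words of C2, 40.2% also occur in Gm20547. How reads that fit Cfb, C2 and Gm20547 were divided cannot be read from the table, so the level of Cfb is uncertain beyond the absence of an error.

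**Figure D2:**
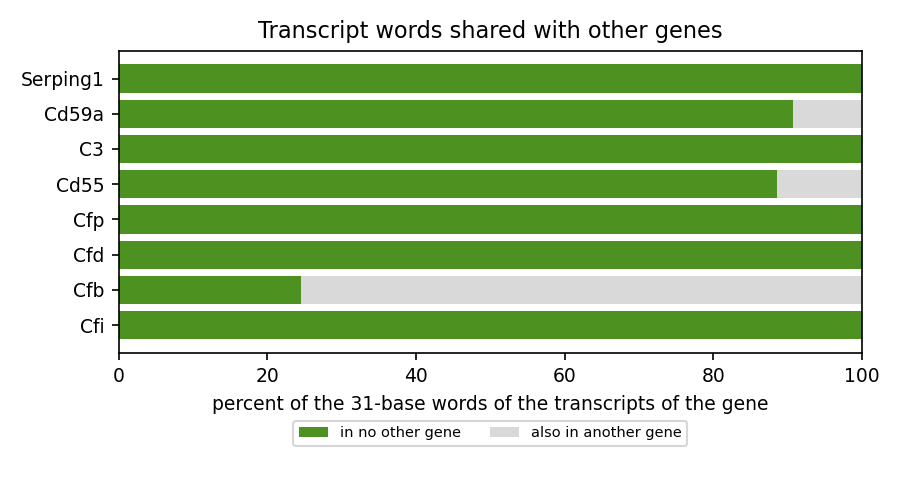
Percent of the 31-base words of the annotated transcripts of each gene that occur in no other gene (green) or also in another gene (grey). Cfb has 24.5% of its words to itself, Cd55 88.6% and Cd59a 90.7%, and the other 5 genes have 100%.

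The regulators spanned the whole range of the pathway. Serping1, which encodes the C1 inhibitor, a serpin that blocks the proteases of the classical and lectin pathways, was the most abundant of the 8 genes. It lies on chromosome 2 at 84765387 to 84775444 on the minus strand, in 8 exons, and had a mean of 2534 normalized counts. That is percentile 94.2 of genes with a mean above 0, and its level of 1434 per kilobase was at percentile 97.3 of those with an annotated length. The genes of its target proteases, C1ra and C1s1 (named C1s in the table), had levels of 534 and 1116 per kilobase, so that Serping1 stood 2.68 times and 1.28 times as high. Of the words of C1ra, 40.7% occur in no other gene, and of those of C1s1 66.5%, so both ratios rest on targets whose reads can be shared with copies. Without division by length C1s1 stood above Serping1, with 3289 against 2534 normalized counts, while C1ra stood below it with 1592.

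Cfi encodes factor I, the plasma protease that inactivates C3b with the help of cofactors, and it was the lowest of the 8 genes. It lies on chromosome 3 at 129835884 to 129875332 on the plus strand. Its mean was 18.3 normalized counts, and its level of 8.80 per kilobase was at percentile 30.9. Cfi and Serping1 are both soluble regulators and stood at opposite ends of the order. The level of C3, whose product factor I cleaves, was 36.4 times that of Cfi per kilobase.

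Cd59a, a membrane-anchored protein that stops C9 from completing the membrane attack pore, had a mean of 744 normalized counts and a level of 412 per kilobase. The gene lies on the plus strand of chromosome 2 at 104095801 to 104115354. Mice carry a second copy, Cd59b, which ends 4613 bases before Cd59a begins. Cd59b had a mean of 49.0 normalized counts, and per kilobase the level of Cd59a was 6.69 times that of Cd59b. Without division by length the ratio was 15.2, so its size depends on the annotated lengths. The copies are close in sequence at the start of their coding regions, which bears on how well their reads can be separated. The most alike 60-base coding stretches within single exons are shown, with the base that differs in capitals. They lie at chr2:104104189-104104248 in exon 3 of Cd59a and at chr2:104078876-104078935 in exon 2 of Cd59b (GRCm38, plus strand).
Cd59a: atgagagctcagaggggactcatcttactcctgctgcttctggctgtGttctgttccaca
Cd59b: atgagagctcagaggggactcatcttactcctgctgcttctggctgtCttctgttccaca

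Over the whole transcripts, 8.23% of the words of Cd59a also occur in Cd59b, and 90.7% occur in no other gene. The longest identical run in the coding regions of both copies was 47 bases. The part of Cd59a that can be read apart from Cd59b was thus much larger than that of Cfb apart from Gm20547.

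Cd55, or decay-accelerating factor, named so because it speeds the breakdown of convertases, had a mean of 316 normalized counts and a level of 101 per kilobase. It lies on chromosome 1 at 130439027 to 130462744 on the minus strand, and 16017 bases separate it from its copy Cd55b (named Daf2 in the table). Daf2 was listed at 0.148 normalized counts, and its level of 0.112 per kilobase was the lowest of the 9 membrane regulators. The coding regions share an identical run of 198 bases, and 11.2% of the words of Cd55 occur in Cd55b. The following 60 coding bases stand in exon 2 of both genes without a difference, at chr1:130461948-130462007 in Cd55 and chr1:130422241-130422300 in Cd55b (GRCm38, minus strand), and are shown as an example of sequence that does not separate the copies.
Cd55: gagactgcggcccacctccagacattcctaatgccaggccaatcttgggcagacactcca

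By level per kilobase the order was Serping1, Cd59a, C3, Cd55, Cfp, Cfd, Cfb and Cfi. Neighbours in this order differed by 3.48 times between Serping1 and Cd59a, 1.29 times between Cd59a and C3, 3.17 times between C3 and Cd55, 1.12 times between Cd55 and Cfp, 1.62 times between Cfp and Cfd, 3.78 times between Cfd and Cfb, and 1.67 times between Cfb and Cfi. None of these steps has a replicate error. The order of Cd59a and C3 turned when means were not divided by length, and that of Cd55 and Cfp turned when length was taken as the union of exons. With coding length, Cd59a moved above Serping1, because its coding region of 369 bases is a small part of its transcript of 1806 bases.

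Set against all genes, the 8 genes were not uniformly abundant. Their median level per kilobase was 95.5, against 46.7 for all genes with a mean above 0 and an annotated length and 103 for the 16467 protein-coding genes among them. Serping1, C3 and Cd59a lay above the protein-coding median, and the other 5 lay below it. Cd55 came closest, at percentile 49.5 per kilobase of protein-coding genes, and Cfi lay at percentile 20.3.

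**Figure D3:**
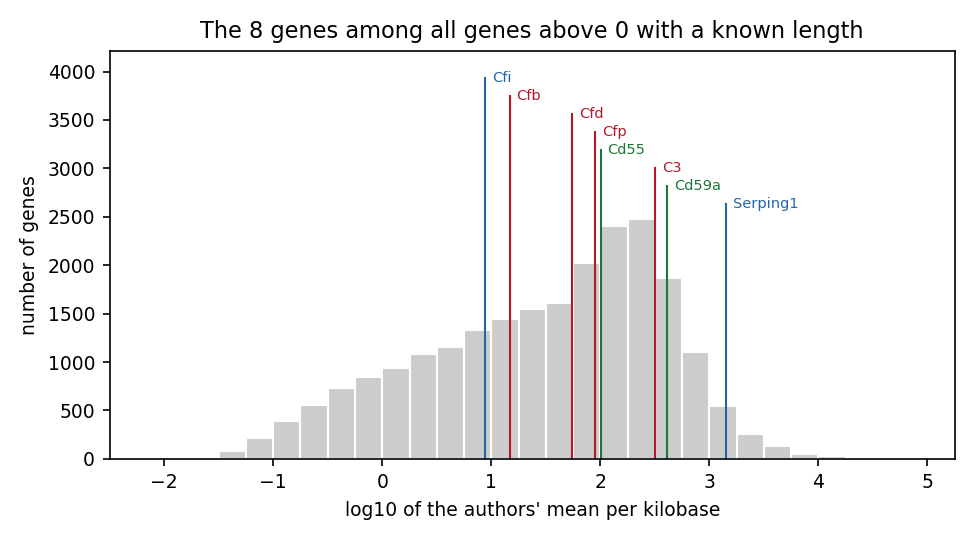
Number of genes by log10 of the level per kilobase, for the 22862 genes with a mean above 0 and an annotated length, with the 8 genes marked by lines. Cfi and Cfb lie at percentiles 30.9 and 36.5, and Serping1 at percentile 97.3.

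The rest of the complement system gave the context for these levels. The 43 other genes on 7 fixed lists had a median level of 17.2 per kilobase, and 2 of them were listed at 0. The 4 alternative pathway components held 1.43% of the summed level per kilobase of all 51 complement genes, and the 8 classical pathway components held 34.8%. Among the classical components the highest was C1qa, a chain of the recognition molecule C1q, at 3633 per kilobase. The 8 fluid-phase regulators held 56.2%. Without the highest gene of each group, the classical components held 50.0% and the fluid-phase regulators 39.5%, so the order of these groups turned. Among the fluid-phase regulators, the gene for the chaperone clusterin, Clu, was highest at 12484 per kilobase, 8.71 times the level of Serping1. C4bp, the plasma cofactor that serves C4b, was listed at 1.65 normalized counts.

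Membrane regulators held 2.82% of the complement signal, and Cd59a was the highest of the 9 per kilobase. Cr1l, the rodent regulator also known as Crry, followed Cd59a with 290 per kilobase, above the 101 of Cd55. Without division by length Cr1l stood first, with 1118 normalized counts against 744 for Cd59a. The 7 complement receptors held 4.53%, and Itgb2, the shared beta chain of the leukocyte integrins that bind C3 fragments, was highest at 571 per kilobase. These integrins and C3ar1 are expressed by myeloid cells, and the 6 macrophage markers had means from 303 to 4063 normalized counts.

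Genes of the lectin and terminal pathways were low in this tissue. None of the 8 lectin pathway genes reached 100 normalized counts. Mbl1 and Fcnb, which encode recognition molecules, were listed at 0, and the highest level of this group was that of Fcna at 17.8 per kilobase. Likewise 0 of the 7 terminal components reached 100, and C8g was highest at 36.1 per kilobase. C9, which forms the pore that the product of Cd59a blocks, had a level of 0.0816 per kilobase, while Cd59a had 412. Hc, which encodes C5, had 0.694.

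**Figure D4:**
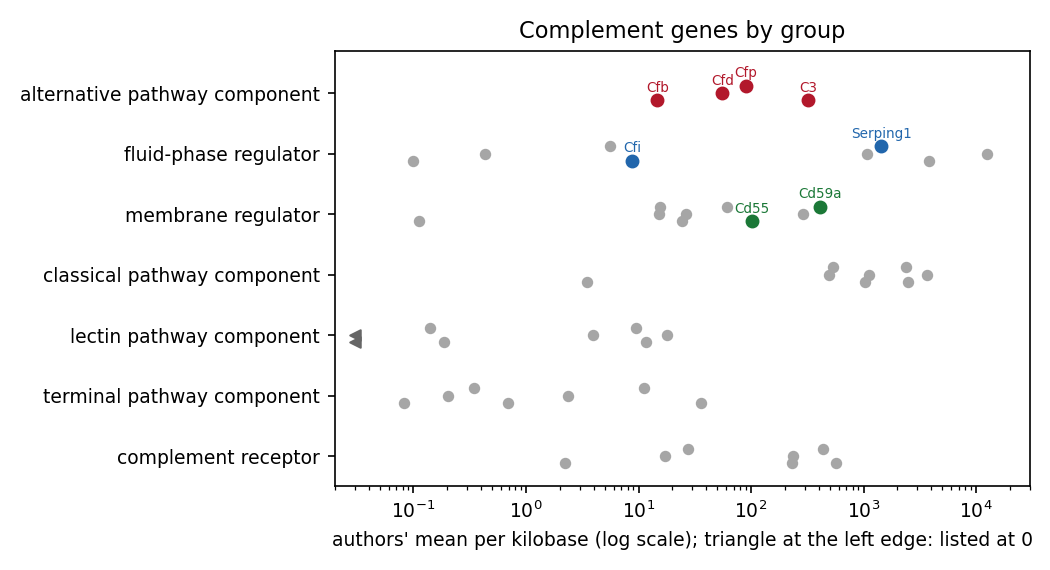
Level per kilobase on a log axis of the 51 complement genes by group, with the 8 alternative pathway genes and regulators coloured and named and the others in grey. Lectin and terminal pathway genes lie at or below 36.1, whereas C3 lies at 320 and Serping1 at 1434, and triangles mark Mbl1 and Fcnb, listed at 0.

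The tissue carried its labelled markers. All 8 RPE markers were above 0, and 7 of them reached 100 normalized counts, led by the thyroxine and retinol carrier gene Ttr at 99321. The exception was Best1, with 69.8 normalized counts and 33.6 per kilobase. The highest marker per kilobase was Pmel on the melanocyte list at 27072, Col1a2 on the fibroblast list at 12072, Plvap on the endothelium list at 1187 and Cd68 on the macrophage list at 995. Whether the RNA of the pigment gene Pmel came from melanocytes or from the RPE was not tested. Markers of neighbouring tissue were also high. Rod photoreceptor markers had means of 5787 normalized counts or more. The 5 skeletal muscle markers ran from 11414 to 51830, and Mylpf was highest per kilobase at 16179. Hepatocytes make most plasma complement, and of 5 hepatocyte markers 3 were listed at 0 and the highest, Apoa1, had 2.07 normalized counts. The part of any of these cell types in the levels of the 8 genes was not tested.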

How the data were processed

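Total RNA was sequenced from RPE/choroid of 3 young and 3 aged mice after rRNA depletion with a stranded kit. The authors used BBDuk for trimming, STAR for alignment to GRCm38 transcripts from Ensembl, Sailfish for quantification with total-count scaling, and DESeq2 to compare the ages. The table deposited by the authors gives per gene baseMean, a signal that is the mean of normalized counts over all 6 libraries. The 5 other columns of values hold the authors' own comparison of young and aged mice (log2 fold change, its standard error, Wald statistic, p-value and adjusted p-value) and were not used. The planned test of age on values per library could not be made, as the table holds 0 columns that name a sample.

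From the means, percentiles among genes above 0, levels per kilobase and shares of summed levels were computed (Python 3.11.15, pandas 2.3.3), with transcript lengths and words of 31 bases from GENCODE M21 (GRCm38). A length was found for 85.7% of genes above 0. Of 106 list symbols, 102 were in the table as written and 4 under an older RefSeq synonym. The ranking step was checked on the deposited means themselves, and the word counts on simulated sequences. Named genes are the 8 members, the highest per kilobase in each list, any complement gene at 0, copies that share reads, and a few genes chosen after their values were seen (C1ra, C1s1, C3ar1, Cr1l, C9, Hc, C4bp, Gm20547, Adipoq, Plin1, Cidec, Lep, Best1, S100a8, Ltf, Elane, Mpo). The highest gene of 1 marker list is not reported here. The members and lists were chosen with earlier results of these data known.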

Additional observations from a re-analysis of the deposited data

How the results depend on the processing

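No paired analysis was possible because only a mean over the libraries was at hand. The test of age, the fits without each library, other scalings and the filter on low counts were likewise not run. With neither replicates nor counts, a value was taken as moved when it changed by over 1.5 times, or by over 5 points for a percentile. The median percentile of the 8 genes was 59.9 among genes above 0, 68.5 among all listed genes, 40.5 among genes with a mean of at least 10 and 42.8 among protein-coding genes, as the set ranked against changed. Their median level per kilobase was 95.5 with the longest transcript, 188 with coding length, 75.1 with the union of exons and 232 without division by length. In the order of levels, 6 of 8 genes kept their place with coding length and 6 without division by length. The share of the alternative pathway components was 1.43% of the complement signal, 2.50% without division by length, 0.998% without the highest gene of each group and 1.42% without genes with a share under 0.5 of their words to themselves. The count of 5 genes at a mean of at least 100 was 8 at a minimum of 10 and 2 at 1000. Of 66 further values of single genes and groups, 31 moved. They include 19 of 24 percentiles of single genes, and the levels of 7 of the 8 genes without division by length, which changes the unit. Of 16 single levels per kilobase under other lengths, 3 moved, those of Cd59a and Cd55 with coding length and of Cd55 with the union of exons.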

Other observations

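Among the genes of the classical pathway, C4a and C4b are further near-identical copies. C4b had a level of 1039 per kilobase and C4a 3.45, and 51.7% of the words of C4b occur in no other gene, so the separate values are uncertain. Neutrophil markers were uneven: per kilobase S100a9 had 215, S100a8 164 and Ltf 15.0, while the granule gene Elane had 0.353 and Mpo was listed at 0. Cfp, which neutrophils and macrophages are known to express, had 90.1 per kilobase.

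The means in the table rose with transcript length. Among protein-coding genes above 0, the median was 71.9 normalized counts in the 4117 genes with the shortest transcripts and 847 in the 4116 with the longest, when genes were split by length into 4 bins. Per kilobase the medians were 56.4 and 132.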
